A study of Homo sapiens with 50 samples.

Results

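The genes described here encode the constitutive 26S proteasome, the protease that degrades ubiquitin-tagged proteins in every cell. The members are all genes whose symbol is PSMA, PSMB, PSMC or PSMD followed by a number, without the inducible and tissue-restricted catalytic subunits PSMB8, PSMB9, PSMB10 and PSMB11. This gave 35 of the 79112 features of the expression table, 15 in the core particle (PSMA and PSMB) and 20 in the regulatory particle (PSMC and PSMD). The rule reads gene symbols only.

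Expression was measured in HepaRG, a single established human hepatic progenitor line that forms hepatocyte-like and biliary-like cells when it differentiates. The cells were bought differentiated, and from day 8 to day 14 all cultures, controls included, were kept in medium with 2% fetal bovine serum and 1% DMSO. The 10 groups were a control without pesticide and 9 exposures, to mesotrione, to isoxaflutole and to quizalofop-p-ethyl at the doses 0.1 uM, 10 uM and 1 mM. Each group had 5 libraries of total RNA, numbered here in the order of their records, and nothing says that they came from separate cultures, so the p-values measure the spread between these libraries, which may be technical. The libraries were sequenced in 3 pools, and the labels do not say which library was in which, so no value within a pool is given. Mesotrione and isoxaflutole are herbicides aimed at the enzyme 4-hydroxyphenylpyruvate dioxygenase, of the triketone and the isoxazole class. Quizalofop-p-ethyl is an aryloxyphenoxypropionate ester aimed at the acetyl-CoA carboxylase of grasses.

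In the core particle, rings of alpha subunits gate a chamber formed by rings of beta subunits, of which PSMB6, PSMB7 and PSMB5 carry the caspase-like, trypsin-like and chymotrypsin-like active sites. The regulatory particle sits on the gate. Its base holds the ATPases PSMC1 to PSMC6, which unfold substrates, with the scaffold proteins PSMD1 and PSMD2 and the ubiquitin receptor PSMD4, and its lid holds the deubiquitinase PSMD14. When the proteasome is overloaded or inhibited, the transcription factor NFE2L1 (NRF1) raises its subunit genes together through antioxidant response elements, and NFE2L2 (NRF2) acts on related elements in oxidative stress.

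A promoter is shown for 3 members among those higher with quizalofop-p-ethyl at 1 mM, as examples that hold both motifs searched, 1 of them or neither: the lid subunit gene PSMD3, the alpha ring gene PSMA3 and the lid subunit gene PSMD11. The sequences are the 250 bases before the RefSeq transcription start in GRCh38.p14, on the plus strand, at chr17:39980557-39980806, chr14:58244593-58244842 and chr17:32444260-32444509. Capitals mark TGACNNNGC, the core of the antioxidant response element, and CCAAT, the NF-Y motif, read on either strand (ATTGG is CCAAT on the other strand).
PSMD3: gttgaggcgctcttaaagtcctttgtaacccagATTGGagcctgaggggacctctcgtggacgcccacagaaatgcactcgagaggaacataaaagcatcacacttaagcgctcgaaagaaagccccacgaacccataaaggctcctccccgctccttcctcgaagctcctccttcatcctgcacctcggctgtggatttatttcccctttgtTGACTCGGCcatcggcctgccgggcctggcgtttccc
PSMA3: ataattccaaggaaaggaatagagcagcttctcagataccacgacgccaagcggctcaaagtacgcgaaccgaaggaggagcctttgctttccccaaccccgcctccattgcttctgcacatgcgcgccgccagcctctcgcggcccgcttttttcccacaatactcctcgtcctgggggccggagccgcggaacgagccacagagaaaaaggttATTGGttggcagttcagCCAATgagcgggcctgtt
PSMD11: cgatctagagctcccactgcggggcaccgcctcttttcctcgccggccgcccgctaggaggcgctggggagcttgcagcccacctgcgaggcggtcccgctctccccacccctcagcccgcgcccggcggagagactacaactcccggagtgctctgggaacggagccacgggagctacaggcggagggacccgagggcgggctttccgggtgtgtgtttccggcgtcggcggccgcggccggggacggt
The PSMD3 window held TGACTCGGC, which begins 37 bases before the start, and 1 CCAAT box 217 bases before it. The PSMA3 window held 2 CCAAT boxes, 35 and 18 bases before the start, and the PSMD11 window held neither motif. In the expression table the earliest PSMD11 transcript starts at chr17:32444261, near the first base of this window. The bases before that start are not shown. RefSeq promoter windows of 300 bases, 250 before and 50 after the start, were found for 30 of the 35 members, in 36 windows. TGACNNNGC was present in 9 of the 36 (25.0%), against 13.3% of all 35116 promoter windows of that length, and CCAAT in 16 (44.4%), against 34.6%. A match is a description of the letters only, and no relation of the motifs to the expression differences was tested.

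All 50 libraries share 1 table of FPKM values (fragments scaled by transcript length and by the mapped fragments of the library) per transcript, summed here over the named transcripts of each gene. Depth, estimated from the step between low FPKM values, ran from 7410000 to 35500000 fragments in 49 libraries. The library quizalofop-p-ethyl 10 uM replicate 5 was unlike the rest: its estimated depth was 3890000 fragments, 6782 genes reached 1 FPKM in it against 16996 to 20321 in the others, and its summed core FPKM was 63.3 against 489 to 750. It was left out, so that group had 4 libraries. Hepatocyte markers were high in the controls, where 10 markers summed to 19836 to 23323 FPKM, in keeping with the label of differentiated hepatic cells, and the biliary and progenitor markers summed to 634 to 725 FPKM, with EPCAM under 0.1 FPKM. In bulk samples fewer cells of a type and less RNA per cell cannot be told apart.

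Of the 35 members 34 passed the filter of at least 1 FPKM in at least 5 libraries. The exception was PSMA8, the testis form of PSMA7, which was listed at 0 in all 50 libraries. The testis markers DDX4 and SYCP3 summed to at most 0.321 FPKM in any of the 49 libraries. The 35 members lie on 16 chromosomes. Each member's FPKM sums several transcripts, 337 in all, of which 154 were annotated as coding and 113 as retained introns.

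In control cells the constitutive subunits ranged from 5.30 FPKM for the lid subunit PSMD12 to 93.5 FPKM for the beta ring subunit PSMB4, with a median of 29.4 FPKM. FPKM is per length, so levels of different genes may be set side by side. The median was 43.9 FPKM for 14 core members and 25.5 FPKM for 20 regulatory members. Within the core, the beta ring lay higher, with a median of 56.6 FPKM and a range from PSMB2 at 21.6 to PSMB4, than the alpha ring, with a median of 26.8 FPKM and a range from PSMA5 at 10.0 to PSMA7 at 71.9. The 6 ATPases had a median of 29.6 FPKM, from PSMC6 at 11.2 to PSMC3 at 42.5. The scaffold PSMD1 stood at 30.3, the ubiquitin receptor PSMD4 at 48.3 and the scaffold PSMD2 at 48.7 FPKM. The lid had a median of 21.3 FPKM, with PSMD8 highest at 54.5. The base assembly chaperones PSMD5, PSMD9 and PSMD10, which carry subunit names but leave the finished particle, had a median of 10.6 FPKM, from PSMD10 at 8.84 to PSMD9 at 13.9. The order of neighbours is loose: PSMD4 and PSMD2, for example, differed by less than the SD of PSMD2, 16.8 FPKM over 5 libraries.

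**Figure D1:**
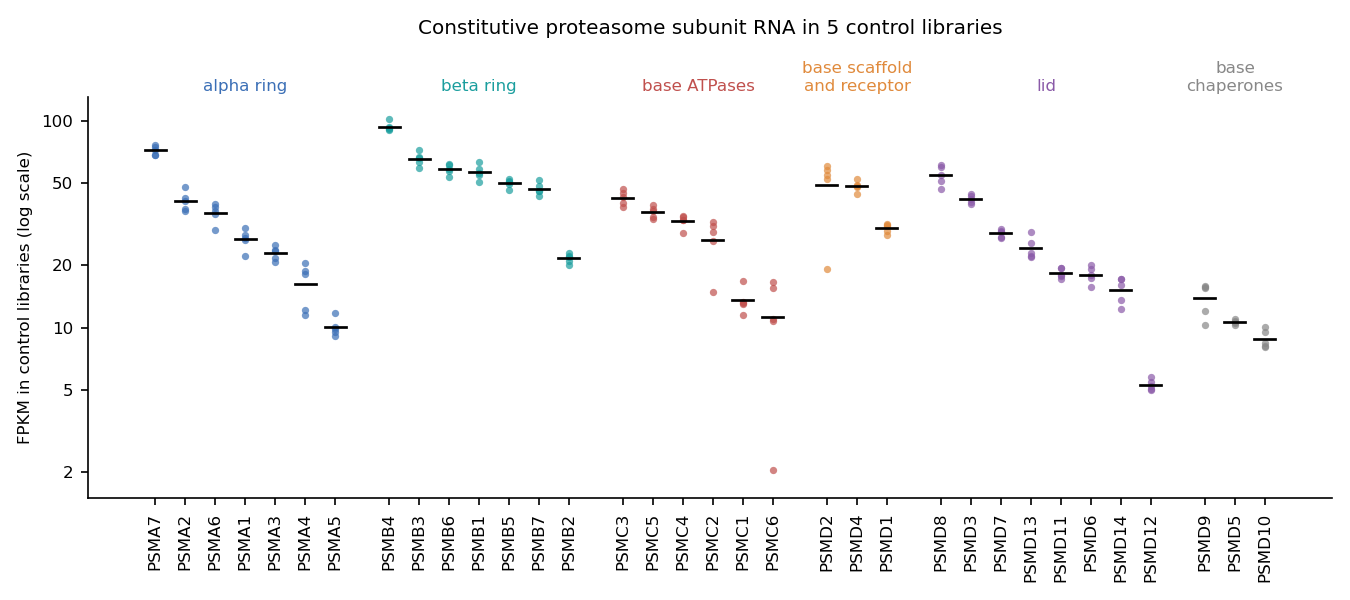
FPKM of each of the 34 expressed constitutive proteasome genes in the 5 control libraries (points, with the mean as a line), grouped by the part of the proteasome they build, on a log axis. Beta ring genes reach 93.5 FPKM (PSMB4), the base chaperones stay at 8.84 to 13.9 on average, and the wide spreads of PSMD2 and PSMC6 stand out.

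Most members were tightly held between libraries of a group. On the log2(FPKM + 1) scale their median within-group SD was 0.154, 0.137 for core and 0.172 for regulatory members, against 0.329 for all 24222 genes tested and 0.235 for the 7128 genes whose mean lay in the members' range. The lid subunit PSMD3 varied least, with an SD of 0.078, and the ATPase PSMC6 most, with an SD of 0.637. In control cells PSMC6 read 2.05, 15.6, 16.6, 11 and 10.8 FPKM in replicates 1 to 5. PSMD2 read 60.0, 57.5, 54.8, 52 and 19.1 FPKM, low in replicate 5 only.

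With quizalofop-p-ethyl at 1 mM subunits of both the core and the regulatory particle were modestly higher than in control. Of 34 members tested 12 were higher and 1 lower in limma's moderated test (Benjamini-Hochberg adjusted over all 24222 genes, threshold 0.05). In that comparison 32.7% of all genes tested passed, 13% higher and 19.8% lower, against 35.3% of members higher. The members' median log2 difference was 0.15, 0.11 for the core and 0.23 for the regulatory particle, against -0.08 for all genes, and 26 of 34 members lay above 0. By role, 3 of 7 alpha ring genes rose and 1 fell, 2 of 7 beta ring genes rose, and 2 of 6 ATPases, 1 of the 3 scaffold and receptor genes and 4 of 8 lid genes rose. None of the 3 base chaperones passed.

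These counts depend on the scaling between libraries. With each library brought to the same summed FPKM, 0 members were higher and 3 lower (PSMA2, PSMD1 and PSMD5), the members' median was -0.07, and of the calls over all genes 20.9% were higher in place of 39.6%. The summed FPKM was 737635 ± 97524 with quizalofop-p-ethyl at 1 mM and 628110 ± 45704 in control (SD, n = 5 each), and 20 features, of which RN7SK, a small nuclear RNA, was the most abundant, made up 426375 and 317169 of it. Without these 20 the sums were 311260 ± 7267 and 310941 ± 8744, and scaling to that sum left the same 12 members higher and PSMA2 lower. Scaling by median ratios gave 18 members higher and 0 lower, with 49.98% of all calls higher. With the most abundant transcript of each gene alone 6 members were higher, PSMB7, PSMC1, PSMD3, PSMD4, PSMD7 and PSMD11, and 2 lower, PSMA2 and PSMB3. With the library that was left out put back, so that 50 were fitted, the differences were the same and 0 members passed. The 34 members together took 0.420% ± 0.040 of the summed FPKM without the 20 features with quizalofop-p-ethyl at 1 mM, 0.413% with isoxaflutole and 0.394% with mesotrione at 1 mM, and 0.369% ± 0.010 in control. As a share of the whole summed FPKM they took 0.181% with quizalofop-p-ethyl and 0.184% in control.

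**Figure D2:**
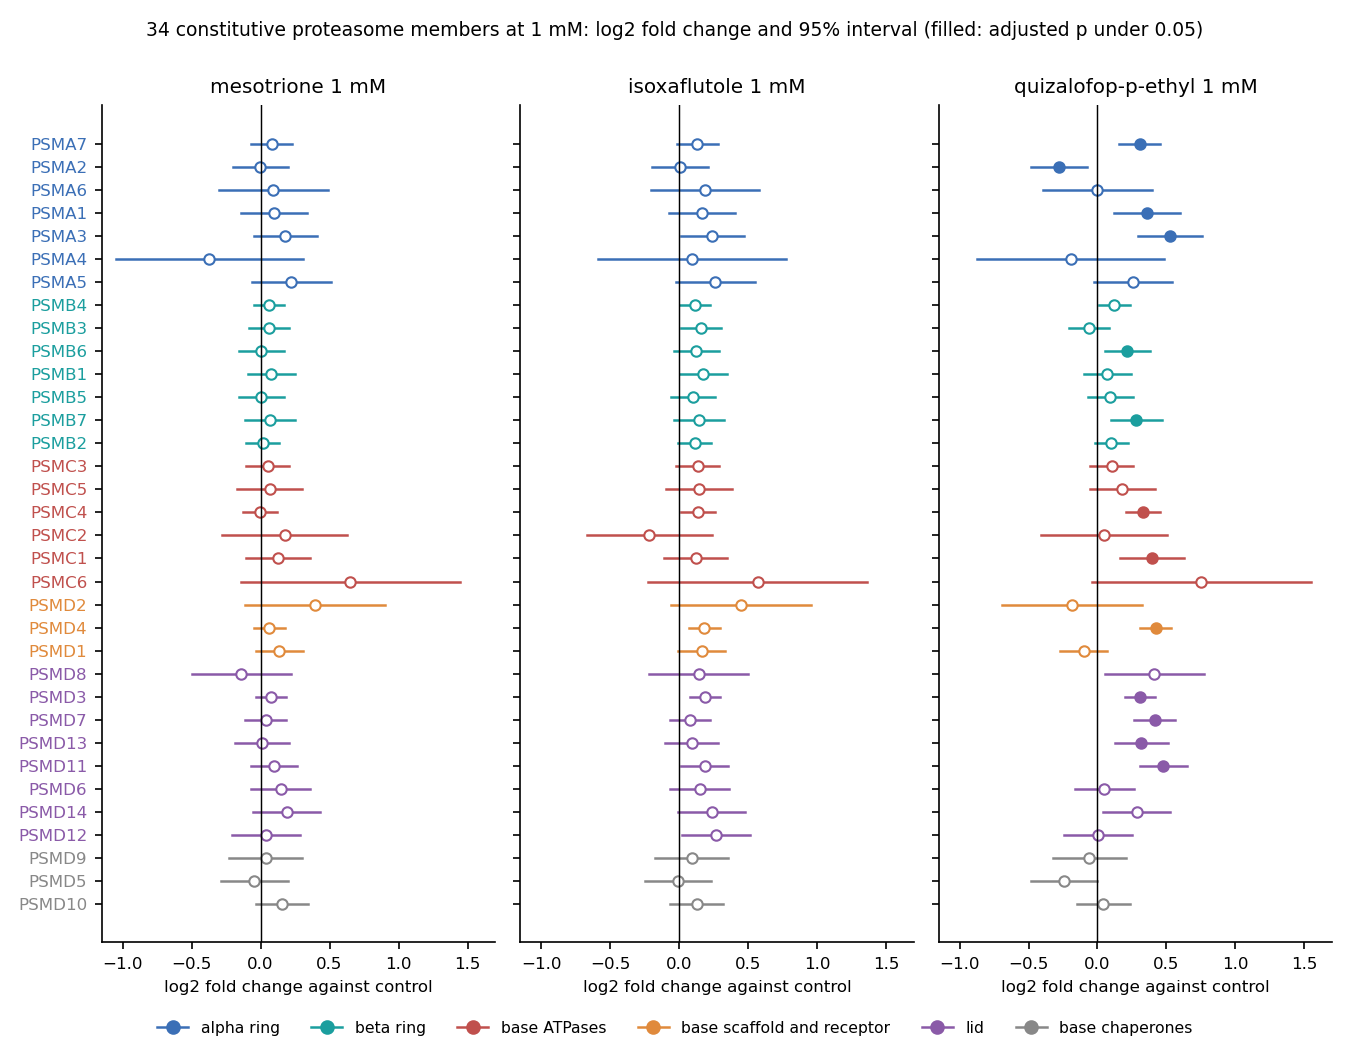
Log2 fold change against control, on the log2(FPKM + 1) scale with 95% intervals, of the 34 members at 1 mM of each compound, coloured by role (filled points passed the threshold). With quizalofop-p-ethyl 12 members are higher and PSMA2 is lower past the threshold, and no member passes with mesotrione or isoxaflutole.

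In the alpha ring, which gates the core, PSMA3 was the member that rose most. Its levels were 21.6, 23.5, 23.7, 20.7 and 25.2 FPKM in control replicates 1 to 5 and 39.6, 35.3, 32.3, 31.8 and 28.7 FPKM with quizalofop-p-ethyl at 1 mM. Every treated library lay above every control, and the log2 difference was 0.53 (95% interval 0.30 to 0.75, limma adjusted p = 0.000238). Its most abundant transcript alone differed by 0.57 and did not pass (limma adjusted p = 0.128). This is a gene that shares its locus with the antisense gene PSMA3-AS1 on the opposite strand. PSMA7 stood at 74.9, 67.9, 71.9, 68.4 and 76.5 FPKM in control and at 93.7, 97.2, 91.6, 79.5 and 84.3 with quizalofop-p-ethyl. Its groups did not overlap either, and it rose by 0.31 (0.16 to 0.45, limma adjusted p = 0.000857), while its most abundant transcript alone differed by 0.16 (limma adjusted p = 0.615). PSMA1 read 26.6, 30.1, 28.1, 22.2 and 27.1 FPKM in control and 42.0, 37.2, 34, 34.9 and 26.6 with quizalofop-p-ethyl. A single treated library lay among the controls, and the log2 difference was 0.36 (0.12 to 0.60, limma adjusted p = 0.0157); without quizalofop-p-ethyl replicate 1, or without control replicate 4, the call was lost, with an adjusted p of up to 0.068.

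PSMA2 went the other way. It read 36.7, 40.9, 47.8, 37.4 and 42.0 FPKM in control and 36.1, 35.6, 31.7, 37.7 and 27.5 with quizalofop-p-ethyl at 1 mM. The groups overlapped, and it fell by 0.28 on the log2 scale (limma adjusted p = 0.0295). It was no longer past the threshold without control replicate 3 or 5 or without quizalofop-p-ethyl replicate 3 or 5, with an adjusted p of up to 0.132, nor with median-ratio scaling. PSMA2 overlaps MRPL32, a mitochondrial ribosomal protein gene on the opposite strand.

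The catalytic subunits did not all pass. PSMB7, the trypsin-like subunit, read 45.8, 48.2, 51.7, 43.1 and 45.4 FPKM in control and 60.9, 59.7, 54.2, 56.4 and 54.7 with quizalofop-p-ethyl at 1 mM. All treated libraries lay above all controls, and the log2 difference was 0.28 (0.10 to 0.47, limma adjusted p = 0.0135). PSMB7 also has transcripts without a gene name at its locus, 22.0 FPKM on average in control and 16.1 with quizalofop-p-ethyl, and with these added the difference was 0.09 (limma adjusted p = 0.255). PSMB6, the caspase-like subunit, read 58.5, 53.1, 56.9, 61.1 and 61.4 FPKM in control and 58.0, 76.3, 65.3, 64.7 and 75.6 with quizalofop-p-ethyl. The groups overlapped through 1 treated library. Its difference of 0.21 (0.05 to 0.38, limma adjusted p = 0.0359) was lost in 5 of 10 fits that left out 1 library (control replicates 1, 2 and 3 and quizalofop-p-ethyl replicates 2 and 5), with an adjusted p of up to 0.123. PSMB5, the chymotrypsin-like subunit and the main target of clinical proteasome inhibitors, read 51.3, 49.2, 46, 50.6 and 52.1 FPKM in control and 52.4, 69, 45.5, 51.5 and 50.1 with quizalofop-p-ethyl. Apart from 1 high treated library the values mixed, and the log2 difference of 0.09 had an interval from -0.07 to 0.25 (limma adjusted p = 0.415).

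In the regulatory particle the ubiquitin receptor PSMD4 gave the lowest p of any member. It read 49, 47.9, 44.2, 48.1 and 52 FPKM in control and 67.9, 65.4, 62.0, 58.5 and 71.9 with quizalofop-p-ethyl at 1 mM. The groups did not overlap, and PSMD4 rose by 0.42 on the log2 scale (0.31 to 0.54, limma adjusted p = 3.25e-08). The lid subunit PSMD11, which takes part in assembly of the 26S particle, read 19.5, 19.4, 17.1, 18 and 17.7 FPKM in control and 28.6, 25.3, 24.6, 29.1 and 22.4 with quizalofop-p-ethyl. Its groups did not overlap and it rose by 0.48 (0.31 to 0.65, limma adjusted p = 1.18e-05). The lid subunit PSMD7, the partner of the deubiquitinase PSMD14, read 29.1, 30.1, 27.4, 27.2 and 29.3 FPKM in control and 45.1, 38.2, 36.5, 36.1 and 36.9 with quizalofop-p-ethyl. All treated libraries were above all controls, and it rose by 0.41 (0.27 to 0.56, limma adjusted p = 9.9e-06). The ATPase PSMC1 read 11.4, 13.2, 16.8, 13.3 and 13 FPKM in control and 17.4, 16.3, 19.5, 19.1 and 17.7 with quizalofop-p-ethyl. A single control library lay among the treated ones, and it rose by 0.39 (0.16 to 0.62, limma adjusted p = 0.00575). The ATPase PSMC4 and the lid subunits PSMD13 and PSMD3 also rose, by 0.33, 0.32 and 0.31. With the most abundant transcript of each gene alone, PSMC4 differed by 0.34 (limma adjusted p = 0.714) and PSMD13 turned to -1.39 (limma adjusted p = 0.182).

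**Figure D3:**
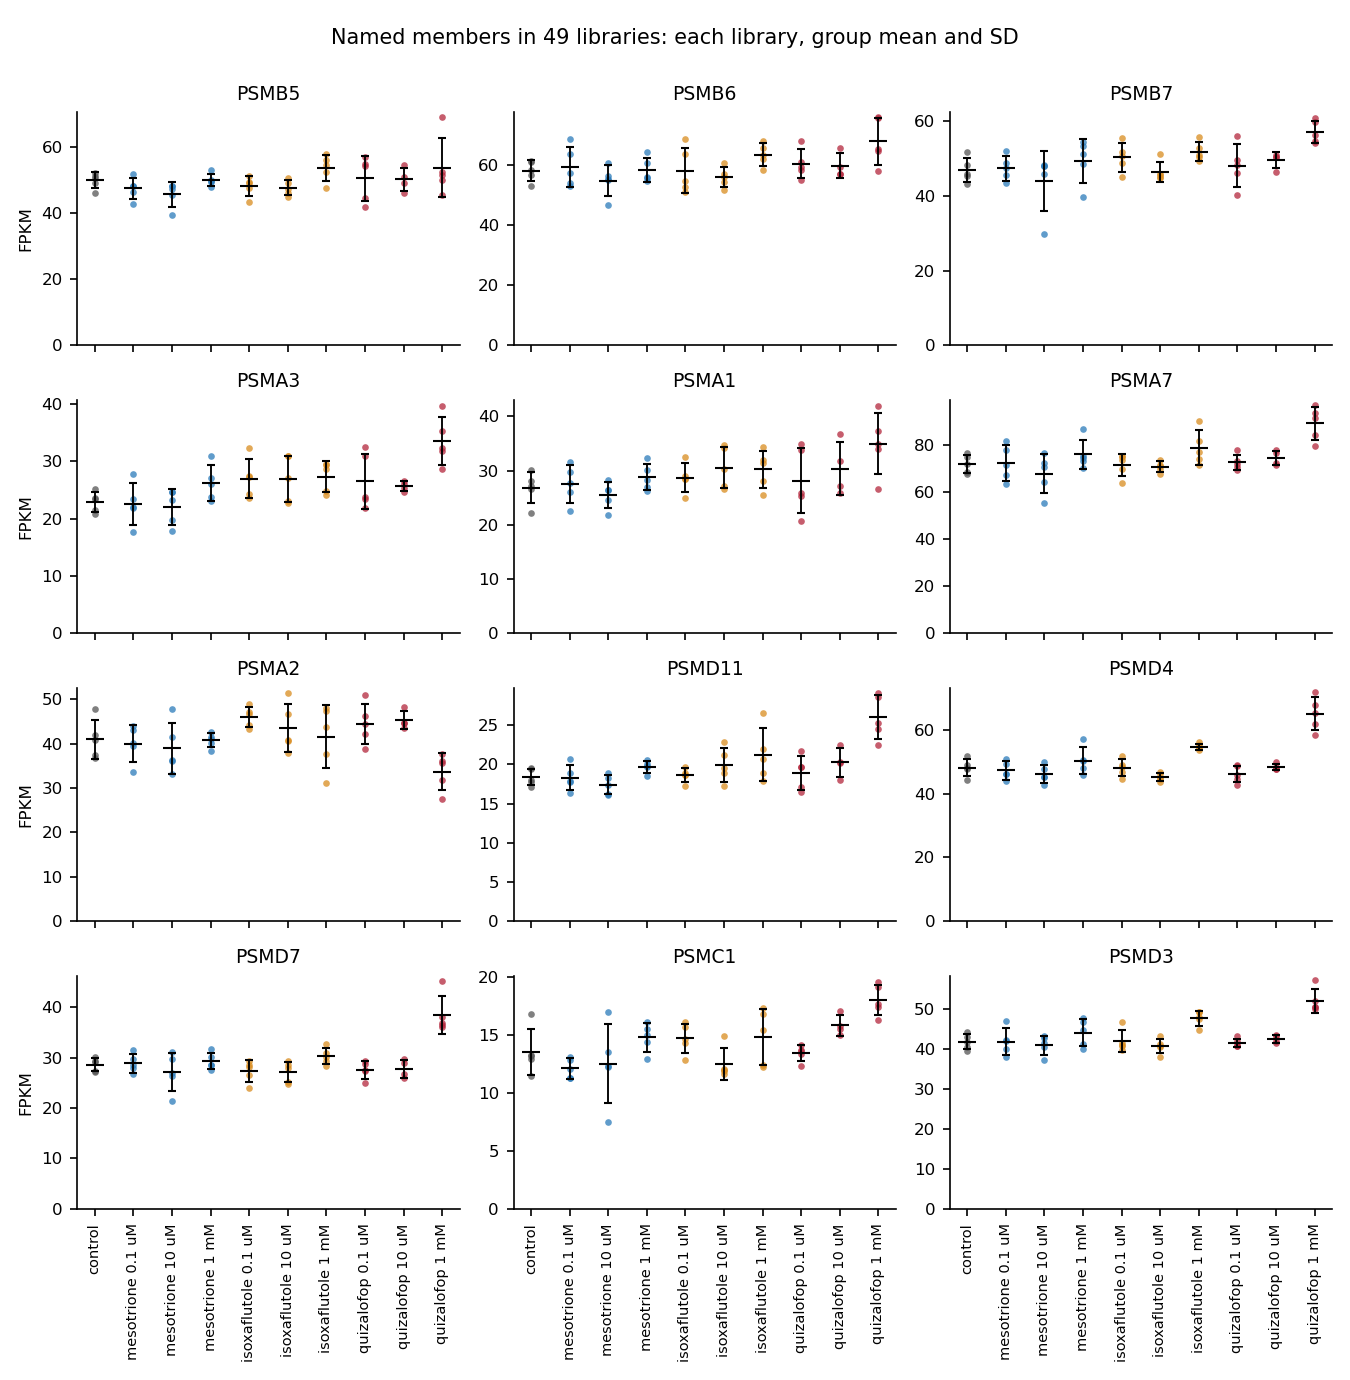
FPKM of the catalytic genes PSMB5, PSMB6 and PSMB7 and of 9 other members in the 10 groups, 1 point per library, with the group mean and SD in black. PSMA3, PSMA7, PSMD4, PSMD7 and PSMD11 show all 5 quizalofop-p-ethyl 1 mM points above all 5 control points, PSMA2 lies lower there, and PSMB5 mixes.

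In all, 9 members had every quizalofop-p-ethyl library above every control library, against 9.1% of all genes tested, and 0 had every one below, against 14.8%. Of the 9, the lid subunit PSMD8 did not pass: it read 61.0, 46.7, 50.8, 59.5 and 54.6 FPKM in control and 74.8, 84.6, 70.2, 73.5 and 61.1 with quizalofop-p-ethyl, and its log2 difference was 0.41 (limma adjusted p = 0.0724). With its unnamed transcripts added it passed, with a difference of 0.49 (limma adjusted p = 2.62e-08). Of the members that did not pass, the ATPase PSMC6 had the highest log2 difference, 0.75, with an interval from -0.04 to 1.55; with unnamed transcripts of its locus added it differed by 0.29 (limma adjusted p = 0.102). The base chaperone PSMD5 had the lowest, -0.24, with an interval from -0.48 to -0.002.

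PSMD2, a scaffold of the base, shows how transcript naming enters a level. Its named transcripts read 48.7 ± 16.8 FPKM in control and 43.0 ± 17.2 with quizalofop-p-ethyl at 1 mM, with a log2 difference of -0.19 (limma adjusted p = 0.63). Transcripts at its locus without a gene name added 9.65 FPKM on average in control and 24.6 with quizalofop-p-ethyl. With these added, the levels were 58.3 ± 3.37 and 67.7 ± 8.08 FPKM (SD, n = 5 each), with ranges of 54.5 to 61.2 and 58.7 to 77.2. Control replicate 5, with 19.1 FPKM named and 42.0 unnamed, then stood at 61.1 FPKM, and the difference was 0.20 (limma adjusted p = 0.015). Over the 49 libraries 8 members had unnamed transcripts of at least 1 FPKM at their locus on average, PSMB7 most with 20.1 FPKM and PSMD2 next with 9.45.

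**Figure D4:**
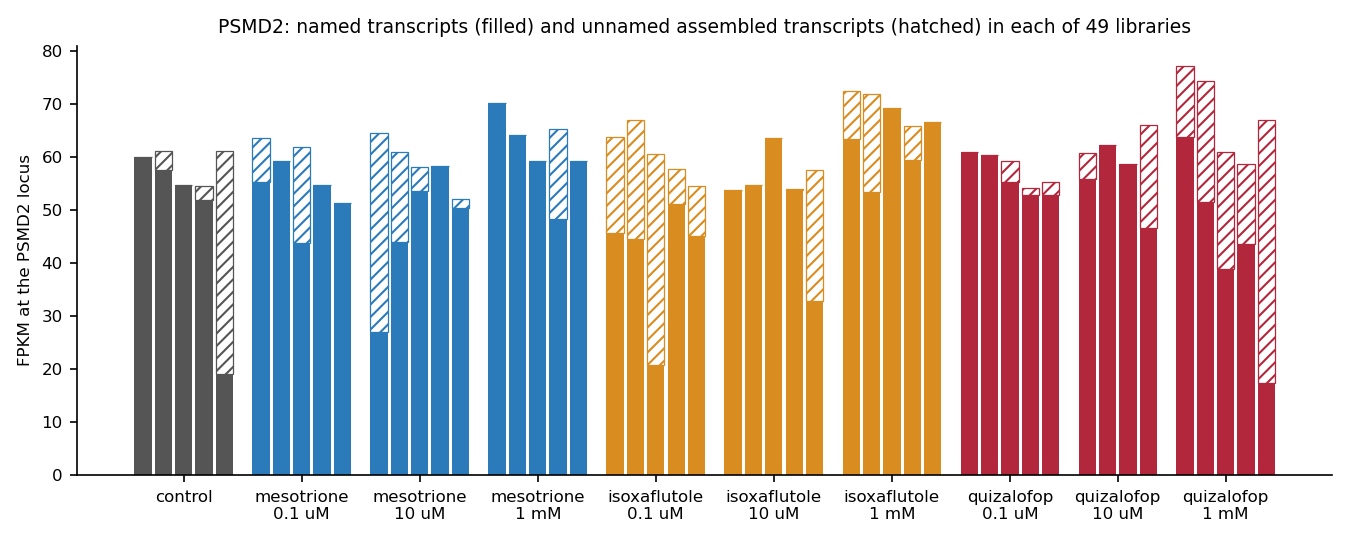
FPKM of PSMD2 in each of 49 libraries, as stacked bars of transcripts that carry the gene name (filled) and transcripts of the same locus without one (hatched). In control replicate 5 the named part is 19.1 FPKM and the unnamed part 42.0, and in quizalofop-p-ethyl 1 mM replicate 5 they are 17.4 and 49.5.

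Cell type markers moved with quizalofop-p-ethyl at 1 mM. All 10 hepatocyte markers fell, by 1.97 to 4.96 on the log2 scale, and summed to 226 to 5447 FPKM against 19836 to 23323 in control, with none under 0.1 FPKM. Of 5 biliary and progenitor markers tested 3 fell (sum 85.5 to 185 FPKM against 634 to 725, EPCAM under 0.1 FPKM), and of 6 mesenchymal markers 4 fell and 1 rose (sum 14.7 to 26.5 against 52.3 to 67.9, COL1A2 under 0.1 FPKM). Of 3 leukocyte markers 2 fell, with PTPRC under 0.1 FPKM in both groups. Their part in the changes of the proteasome genes was not tested.

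With isoxaflutole at 1 mM no member passed the threshold in limma's test, where 2.42% of all genes did. Unadjusted, 9 members were higher at a p under 0.05 and 0 lower, against 6.07% of all genes higher and 6.55% lower. The members' median log2 difference was 0.14, 32 of 34 lay above 0, and all genes had a median of -0.01. In 3 members, PSMD3, PSMD4 and the lid subunit PSMD12, every treated library lay above every control, against 2.46% of all genes. PSMD4 read 56.2, 54.7, 55.3, 54.3 and 53.8 FPKM with isoxaflutole at 1 mM, all above the highest control value of 52, with a difference of 0.18 (limma adjusted p = 0.0701). PSMD3 read 48, 49.4, 47.4, 49.2 and 44.7 FPKM with isoxaflutole and 41.8, 44.2, 39.6, 40.5 and 43.0 in control, with a difference of 0.19 (limma adjusted p = 0.051). PSMD3 and PSMD4 passed when libraries were scaled to the sum without the 20 most abundant features. PSMD12 read 6.37, 6.47, 6.38, 6.28 and 7.44 FPKM with isoxaflutole against 4.98, 5.06, 5.44, 5.79 and 5.20, with a difference of 0.27 (limma adjusted p = 0.333). The catalytic genes PSMB5, PSMB6 and PSMB7 had differences of 0.10, 0.12 and 0.15, with adjusted p of 0.663, 0.564 and 0.547. The hepatocyte markers summed to 10376 to 19056 FPKM in this group, the biliary and progenitor markers to 482 to 609 FPKM and the mesenchymal markers to 20.4 to 28.5 FPKM, each below every control library. The leukocyte markers, 11.8 to 34.7 FPKM, lay within the control range of 8.75 to 36.2. Their part in the members' differences was not tested.

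With mesotrione at 1 mM no member passed, and 0 members had an unadjusted p under 0.05 in limma's test, where 0.879% of all genes passed and 9.36% had an unadjusted p under 0.05. The median log2 difference was 0.07, with 29 of 34 members above 0. PSMB5 read 50.03, 52.9, 48, 49.3 and 49.8 FPKM, PSMB6 64.5, 60.8, 54.8, 56.3 and 55.8, and PSMB7 54.5, 51.1, 53.4, 39.6 and 48.5, all mixed with the control values. PSMD4 read 57.1, 50.4, 48.2, 50.6 and 46 FPKM. The hepatocyte markers summed to 12492 to 20541 FPKM in this group and overlapped the control range of 19836 to 23323. Below every control library were the biliary and progenitor markers, 423 to 561 FPKM, and the mesenchymal markers, 21.1 to 33.3 FPKM. The leukocyte markers, 7.87 to 21.5 FPKM, overlapped the control range of 8.75 to 36.2. The part of the markers in the members' differences was not tested. All comparisons with control share the same 5 control libraries, so a control library that is high or low moves each of them.

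At 10 uM and 0.1 uM no member passed in any of the 6 comparisons with control in limma's test, and the lowest adjusted p of a member was 0.96. Of all genes tested, 0.0% passed with mesotrione at 10 uM, 0.0% with isoxaflutole at 10 uM, 0.00826% with quizalofop-p-ethyl at 10 uM, and 0.0%, 0.0% and 0.0% with mesotrione, isoxaflutole and quizalofop-p-ethyl at 0.1 uM. At an unadjusted p under 0.05 the members were PSMC5 lower with mesotrione at 10 uM, PSMB2 higher with quizalofop-p-ethyl at 10 uM, PSMD10 higher with mesotrione at 0.1 uM, and PSMD14 higher with quizalofop-p-ethyl at 0.1 uM. Isoxaflutole had PSMD12 higher and PSMD8 lower at 10 uM and PSMD14 higher and PSMD8 lower at 0.1 uM. The named PSMD8 transcripts averaged 41.0 and 42.2 FPKM with isoxaflutole at 10 uM and 0.1 uM. With unnamed transcripts of the locus added PSMD8 averaged 51.7 and 53.2 FPKM, against 56.2 in control. Likewise PSMC5 averaged 31.3 FPKM named with mesotrione at 10 uM, and 35.6 with unnamed transcripts added, against 36.2 in control. Unadjusted, 3.03%, 4.42% and 4.79% of all genes lay under 0.05 with mesotrione, isoxaflutole and quizalofop-p-ethyl at 10 uM, and 4.22%, 5.0% and 3.72% at 0.1 uM. Member medians of the log2 difference were -0.07, 0.03 and 0.07 at 10 uM, and 0.01, 0.02 and 0.03 at 0.1 uM, in the same order.

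The 4 members with the largest log2 differences among those past the threshold against control at 1 mM were PSMA3, PSMD11, PSMD4 and PSMD7. With quizalofop-p-ethyl PSMD4 was 46.3 ± 2.65 FPKM at 0.1 uM (SD, n = 5), 48.5 ± 1.00 at 10 uM (n = 4) and 65.1 ± 5.19 at 1 mM (n = 5), against 48.3 ± 2.77 in control. PSMD7 was 27.6 ± 1.7, 27.8 ± 1.77 and 38.6 ± 3.76 FPKM at the same doses, against 28.6 ± 1.28. PSMD11 was 18.9 ± 2.13, 20.2 ± 1.85 and 26.0 ± 2.83 FPKM, against 18.4 ± 1.05. PSMA3 was 26.5 ± 4.87, 25.7 ± 0.819 and 33.6 ± 4.12 FPKM, against 22.9 ± 1.77. The differences between doses of 1 compound were not tested.

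Compared directly at 1 mM, 10 members were higher and 2 lower with quizalofop-p-ethyl than with mesotrione in limma's test, where 30.2% of all genes passed, 12.6% higher and 17.6% lower. The members that differed most were PSMD8, 72.8 ± 8.50 against 50.3 ± 11 FPKM (SD, n = 5 each), with a log2 difference of 0.55 (0.19 to 0.91, limma adjusted p = 0.0144), and PSMD11, with 0.38 (0.21 to 0.55, limma adjusted p = 0.000386). The PSMD8 call was lost without mesotrione replicate 2, which read 31.5 FPKM, with an adjusted p of 0.091. With unnamed transcripts of its locus added PSMD8 averaged 55.2 ± 3.11 FPKM with mesotrione, and the difference was 0.51 (limma adjusted p = 1.01e-08). Lower were PSMA2, by 0.28 (limma adjusted p = 0.0323), and PSMD1, by 0.23 (limma adjusted p = 0.0301). PSMD1, a scaffold of the base, read 30.8, 40.3, 33.4, 30.2 and 33 FPKM with mesotrione and 30.4, 31.7, 29.3, 28.5 and 22.1 with quizalofop-p-ethyl, with overlap, and its call was lost without mesotrione replicate 2 or quizalofop-p-ethyl replicate 5. The PSMA2 call was lost in 5 of 10 fits that left out 1 library (mesotrione replicates 2, 3 and 5 and quizalofop-p-ethyl replicates 3 and 5).

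Against isoxaflutole at 1 mM, quizalofop-p-ethyl had 4 members higher, PSMC4, PSMD4, PSMD7 and PSMD11, and 3 lower, PSMA2, PSMB3 and PSMD1, where 29.7% of all genes passed, 11.7% higher and 18.1% lower. PSMD7 read 28.4, 32.6, 30.1, 29.3 and 31 FPKM with isoxaflutole, below all 5 quizalofop-p-ethyl libraries, and differed by 0.33 (0.19 to 0.48, limma adjusted p = 0.000273). PSMD11 differed by 0.29 (0.12 to 0.46, limma adjusted p = 0.0065). Of the lower members PSMA2 differed by -0.28 (limma adjusted p = 0.0265) and PSMD1 by -0.26 (limma adjusted p = 0.0141); PSMA2 lost its call in 5 of 10 fits without 1 library (isoxaflutole replicates 2, 3 and 5 and quizalofop-p-ethyl replicates 3 and 5), PSMD1 without isoxaflutole replicate 2 or quizalofop-p-ethyl replicate 5. With each library brought to the same summed FPKM no member was higher with quizalofop-p-ethyl than with either herbicide.

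Isoxaflutole and mesotrione, which share an enzyme target, were not told apart by any member at 1 mM. Of 34 members 30 lay above 0 with isoxaflutole against mesotrione, with a median log2 difference of 0.07 against 0.01 for all genes. In limma's test 0 members passed, where 0.256% of all genes did, and 3 were higher at an unadjusted p under 0.05, against 4.33% of all genes. These were PSMC4, with a difference of 0.14 (95% interval 0.01 to 0.27, limma adjusted p = 0.669), PSMD3 with 0.11 and PSMD4 with 0.12. The lowest end of any member's interval was -0.87 and the highest end of any was 1.15, each taken over the members separately. Differences within a member's own interval were not excluded for that gene. At 10 uM and 0.1 uM no pair of compounds differed in any member in limma's test, with adjusted p of 0.86 or more. Of all genes tested 0.0% passed between isoxaflutole and mesotrione, 0.0124% between quizalofop-p-ethyl and mesotrione and 0.00413% between quizalofop-p-ethyl and isoxaflutole at 10 uM, and 0.0% in each of the 3 pairs at 0.1 uM. At an unadjusted p under 0.05 the same pairs had 7, 7 and 3 members at 10 uM, where 4.59%, 5.43% and 4.62% of all genes lay under 0.05, and 2, 0 and 1 at 0.1 uM, where 4.93%, 4.73% and 3.41% did.

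The core and the regulatory particle were also compared by their summed levels. In control the core members summed to 617 ± 25.3 FPKM and the regulatory members to 529 ± 11.6, a ratio of 1.165 ± 0.053 that ran from 1.10 to 1.24 over 5 libraries. With quizalofop-p-ethyl at 1 mM the sums were 750, 747, 662, 653 and 613 FPKM for the core and 692, 663, 616, 600 and 542 for the regulatory particle, in replicates 1 to 5, with a ratio of 1.101 ± 0.026. In 4 of the 5 treated libraries both sums lay above every control. Replicate 5 lay among the controls, which ran from 584 to 652 FPKM for the core and from 517 to 548 for the regulatory particle. The ratio's range of 1.075 to 1.130 overlapped that of control. With unnamed transcripts added at loci that held a single named gene, the ranges did not overlap. The ratio then ran from 0.976 to 1.099 with quizalofop-p-ethyl at 1 mM and from 1.130 to 1.241 in control. Left out of this addition were the core genes PSMA1 and PSMA6, so it is incomplete for the core. Their unnamed transcripts averaged 7.56 and 5.45 FPKM with quizalofop-p-ethyl at 1 mM and 5.74 and 0.245 FPKM in control. With isoxaflutole at 1 mM the sums were 681 ± 25.3 and 593 ± 15.6 FPKM and the ratio 1.149 ± 0.020; the regulatory sums, 579 to 613 FPKM, all lay above the controls, and the core sums, 649 to 711, overlapped them. With mesotrione at 1 mM the core sum, the regulatory sum and the ratio were 640 ± 24.2 FPKM, 564 ± 20.4 FPKM and 1.135 ± 0.031 (SD, n = 5 each). Over all 49 libraries the ratio lay between 1.02 and 1.34, and these sums were described without a test.

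**Figure D5:**
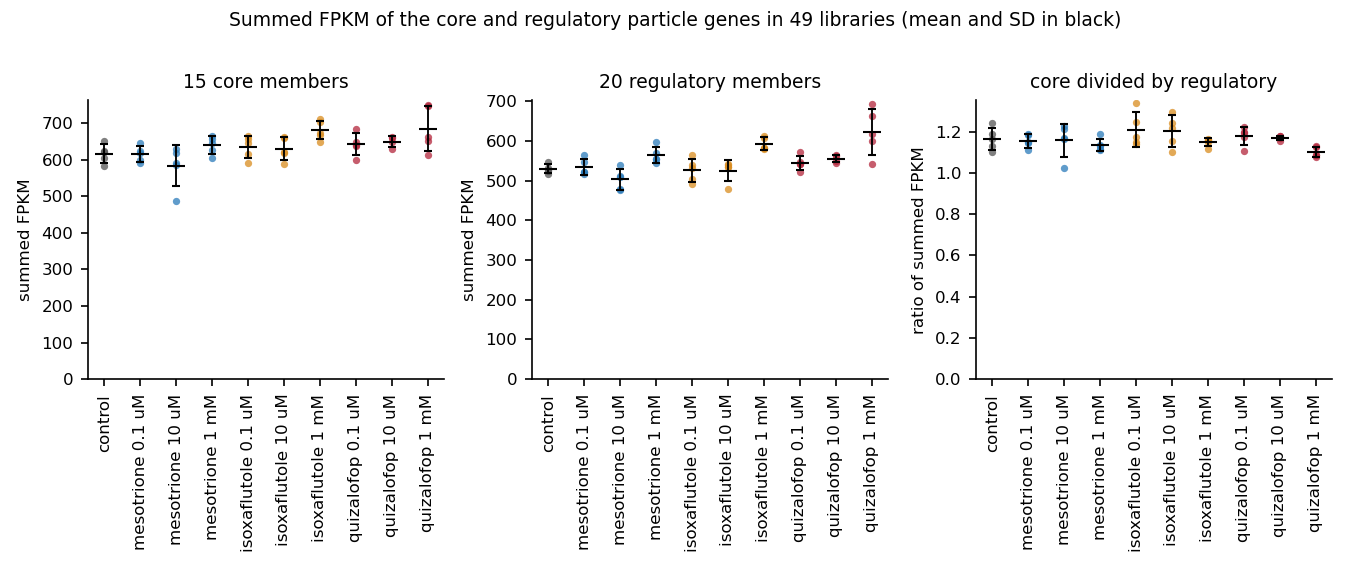
Summed FPKM of the 15 core members, of the 20 regulatory members and the ratio of these sums in each of 49 libraries (points), by group, with mean and SD in black. The quizalofop-p-ethyl 1 mM libraries reach 750 and 692 FPKM, and the ratio stays between 1.02 and 1.34 throughout.

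Genes that work with the proteasome were taken from fixed lists. Of 5 chaperones that assemble the core, 3 were higher with quizalofop-p-ethyl at 1 mM in limma's test: PSMG3 by 0.79 (adjusted p = 6.08e-07), PSMG4 by 0.69 (adjusted p = 6.55e-09) and PSMG1 by 0.48 (adjusted p = 0.0271). POMP, which completes core assembly, differed by 0.05 (adjusted p = 0.862) and PSMG2 by -0.08. Of the immunoproteasome subunits, which replace the constitutive catalytic ones, PSMB9 fell by 0.38 (limma adjusted p = 0.00422), from 27.3 ± 3.12 to 20.7 ± 1.23 FPKM (SD, n = 5 each). PSMB8 read 39.7 FPKM against 42.0 in control (adjusted p = 0.586) and PSMB10 differed by -0.78 (adjusted p = 0.279), and PSMB11 did not pass the filter. Scaling by median ratios ended the PSMB9 call and scaling to equal sums the PSMG1 call.

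Of 11 other caps, receptors and regulators, 4 were higher and 1 lower with quizalofop-p-ethyl at 1 mM in limma's test. Higher were KIAA0368 (ECPAS, a proteasome adaptor) by 0.60, the ubiquitin receptor ADRM1 by 0.51, the inhibitor PSMF1 by 0.46 and the deubiquitinase USP14 by 0.35, with adjusted p of 0.0446, 4.19e-06, 1.81e-05 and 0.0397. PSME1, a subunit of the PA28 activator, fell by 0.34 (adjusted p = 6.34e-07). With equal summed FPKM 0 of the 11 were higher and PSME1 was lower.

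Of 11 genes around NFE2L1 and NFE2L2, 6 were higher and 2 lower with quizalofop-p-ethyl at 1 mM in limma's test. NFE2L1 rose from 31.1 ± 7.74 to 82.1 ± 14.4 FPKM (log2 difference 1.39, adjusted p = 1.98e-09) and NFE2L2 from 29 ± 2.68 to 49.7 ± 12.6 (0.73, adjusted p = 5.96e-05; SD, n = 5 each). Of the antioxidant targets, SRXN1 rose by 2.82, GCLM by 1.98 and HMOX1 by 1.35 (adjusted p = 5.05e-25, 5.18e-11 and 7.79e-06). HMOX1 differed by 2.93 with unnamed transcripts of its locus added. NQO1, also an NFE2L2 target, fell by 1.01 (adjusted p = 2.88e-06), and DDI2, the protease that activates NFE2L1, by 0.29 (adjusted p = 0.0221). Scaled to equal sums, 5 were higher and 2 lower, and NFE2L1 differed by 1.17 and NFE2L2 by 0.51. With its most abundant transcript alone NFE2L2 differed by 0.68 and did not pass (limma adjusted p = 0.323), nor did GCLM (1.68, adjusted p = 0.139).

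Of 12 ubiquitin genes, shuttle factors and unfoldase genes 5 were higher and 2 lower with quizalofop-p-ethyl at 1 mM in limma's test. The shuttles UBQLN4 and UBQLN1, which carry ubiquitylated proteins to the proteasome, rose by 0.80 and 0.30 and the VCP cofactor NSFL1C by 0.39 (adjusted p = 1.29e-09, 0.0353 and 0.0144). The shuttle UBQLN2 and the ubiquitin-activating enzyme UBA1 fell by 0.30 and 0.27 (adjusted p = 6.66e-06 and 9.57e-05). With equal summed FPKM 2 were higher and 2 lower. Among the genes named from these lists, PSMG1, PSMG3, KIAA0368, ADRM1, PSMF1, USP14, NFE2L2, GCLM, UBQLN1, NSFL1C and UBA1 did not pass with the most abundant transcript alone, and UBQLN1 and NSFL1C then differed by -0.71 and -0.42. With all 50 libraries fitted, PSMG3, NFE2L1, NFE2L2, SRXN1, GCLM, HMOX1, NQO1 and UBQLN4 still passed and the other named genes did not.

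With the other herbicides at 1 mM few genes of these lists passed in limma's test. SRXN1 was higher with mesotrione, by 0.68 (adjusted p = 5.43e-05), and with isoxaflutole, by 0.65 (adjusted p = 5.79e-05), and UBA1 was higher with isoxaflutole, by 0.21 (adjusted p = 0.0275). NFE2L1 differed by 0.12 and 0.16, NFE2L2 by 0.17 and 0.01, POMP by 0.27 and 0.15 and PSMB9 by 0.23 and 0.27 with mesotrione and isoxaflutole, none past the threshold. At 10 uM and 0.1 uM none of POMP, NFE2L1, NFE2L2, PSMB8, PSMB9 and PSMB10 passed.

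Some member levels may include reads of other genes. Of the 34 tested members 8 overlap another gene of at least 1 FPKM on the opposite strand. PSMA2 does so with MRPL32, PSMA3 with PSMA3-AS1 and with C14orf37, PSMC1 with NRDE2 and PSMC2 with DNAJC2. The others are PSMC5 with FTSJ3, PSMD13 with SIRT3, PSMD14 with AC009299.2 and PSMD5 with PSMD5-AS1. The library kit marks strand, but no source used here states whether the counting used it, so these members are uncertain. Named pseudogenes exist in the table for 9 members and summed to at least 1 FPKM for 3: 3.10 FPKM for PSMA6, 2.33 for PSMC1 and 1.91 for PSMD10.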

How the data were processed

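Total RNA libraries, stranded and depleted of ribosomal RNA, were read as 75 bp pairs, per the labels' protocols. HISAT, HISAT2, StringTie and GRCh38 are named in the submitters' processing notes, without versions. The deposited table holds FPKM per transcript for 50 libraries, and all 50 columns are labelled FPKM. Only here were 20 of these columns called a score, because they hold 24 values slightly below 0 (lowest -0.00045). In the deposited file these score values are FPKM as the authors made them, in the same unit as the other 30 columns. No source used here states what made the 24 values negative, and they were set to 0. Of 239290 transcripts 199173 carried a gene name and were summed per gene and library.

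log2(FPKM + 1) was fitted with limma 3.58.1 in R 4.3.3 (trend and robust), 1 mean per group over 49 libraries, for the 24222 genes that reached 1 FPKM in 5 or more libraries. Adjusted p-values are Benjamini-Hochberg over those genes within each of 9 comparisons with control and 9 between compounds at 1 dose. The pseudocount of 1 makes log2 fold changes of weakly expressed genes too small. The fit was also run on simulated data with independent noise and no scaling differences between libraries. That run cannot bear on how the calls depend on scaling. FPKM carries no read counts, so no counting interval is given.

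The members and gene lists were chosen with earlier results of these data known. The rule for named genes took PSMB5, PSMB6, PSMB7 and up to 4 core and 4 regulatory members in each direction past the threshold at 1 mM, up to 2 in each direction between compounds, and up to 4 genes per direction in each related list, with POMP, NFE2L1, NFE2L2, PSMB8, PSMB9 and PSMB10 always. Among the related-list genes that the rule names, 1 is not reported here. PSMC4, PSMC5, PSMC6, PSMD1, PSMD2, PSMD3, PSMD5, PSMD8, PSMD12 and PSMD13 were named after their values were seen. Library values are given for members only. Alternatives were another pseudocount (0.1), no filter, other scalings, a replicate block, all 50 libraries, the most abundant transcript alone, unnamed transcripts added, 2 groups alone and each library left out. Unnamed transcripts were added only at loci with a single named gene, which left out those of PSMA1 and PSMA6.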

Additional observations from a re-analysis of the deposited data

Results flagged for a closer look

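In each group of 4 or 5 libraries, the highest or lowest library of each member and of the summed levels was compared with the others by Dixon's ratio at 95%. Of 370 such groups 24 held a library that stood apart, or 6.49%, and chance alone gives about 5%.

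In the core, with quizalofop-p-ethyl at 1 mM, the alpha ring gene PSMA4 read 33.8 FPKM in replicate 1 against 7.81 to 13.7 in the others. The beta ring gene PSMB2 read 27.8 FPKM in replicate 2 against 21.5 to 22.9. PSMB3, another beta ring gene, read 77.6 FPKM in isoxaflutole 1 mM replicate 1 against 71 to 72.4, and 55.3 FPKM in isoxaflutole 10 uM replicate 4 against 65.8 to 68.9. Mesotrione 10 uM replicate 4 was low for PSMB4, at 77.7 FPKM against 88.5 to 92.7, and for the catalytic gene PSMB7, at 29.9 FPKM against 45.7 to 48.3. PSMB7 was high in isoxaflutole 10 uM replicate 1, at 51.3 FPKM against 44.8 to 45.8, and low in quizalofop-p-ethyl 10 uM replicate 3, at 46.3 FPKM against 50.5 to 50.8.

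Among the ATPases, PSMC1 was high in isoxaflutole 10 uM replicate 2, at 14.9 FPKM against 11.7 to 12. PSMC3 was high in mesotrione 1 mM replicate 1, at 51 FPKM against 41.2 to 43.0. PSMC4 was high in isoxaflutole 10 uM replicate 4, at 32.9 FPKM against 30.4 to 30.7, and low in control replicate 3, at 28.6 FPKM against 33 to 34.6. PSMC5 was low in isoxaflutole 1 mM replicate 5, at 33.6 FPKM against 41.3 to 42.4. PSMC6 was low in isoxaflutole 1 mM replicate 1, at 7.21 FPKM against 16.0 to 17.9, and high in isoxaflutole 10 uM replicate 2, at 21.5 FPKM against 13.9 to 15.9.

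In the lid, PSMD12 was high in 3 groups. It read 8.10 FPKM in mesotrione 10 uM replicate 4 against 4.91 to 5.78, 8.05 FPKM in mesotrione 0.1 uM replicate 3 against 5.11 to 5.77, and 7.44 FPKM in isoxaflutole 1 mM replicate 5 against 6.28 to 6.47. PSMD3 was high in isoxaflutole 0.1 uM replicate 2, at 46.7 FPKM against 39.8 to 41.6, and in quizalofop-p-ethyl 1 mM replicate 5, at 57.4 FPKM against 50.1 to 52. PSMD7 was high in quizalofop-p-ethyl 1 mM replicate 1, at 45.1 FPKM against 36.1 to 38.2. The scaffold PSMD2 was low in isoxaflutole 0.1 uM replicate 3, at 20.8 FPKM against 44.5 to 51.2, and in control replicate 5, at 19.1 FPKM against 52 to 60.0. The summed regulatory level was low in isoxaflutole 10 uM replicate 5, at 478 FPKM against 533 to 541.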

How the results depend on the processing

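Of the 13 members called with quizalofop-p-ethyl at 1 mM against control, 10 kept the call in each of 10 fits that left out 1 library; PSMA1, PSMA2 and PSMB6 did not. Without 1 library each, the counts ran from 4 to 6 core and 7 to 9 regulatory members higher and from 0 to 2 members lower. The main counts were 5 core and 7 regulatory members higher and 1 lower. Median-ratio scaling gave 8 core and 10 regulatory members higher and 0 lower. Unnamed transcripts of the loci added, without those of the core genes PSMA1 and PSMA6, gave 4 core and 10 regulatory members higher and 1 lower. PSMC5, PSMD2 and PSMD8 then entered and PSMB7 left, and PSMC5 differed by 0.32 (limma adjusted p = 0.00011). Equal summed FPKM, an alternative added after the data were seen, gave 0 core and 0 regulatory members higher and 3 lower. With all 50 libraries the estimates stayed the same and the larger residual spread left 0 core and 0 regulatory members higher and 0 lower. The most abundant transcript alone gave 1 core and 5 regulatory members higher and 2 members lower. No filter on low values left 0 lower, as did a fit of the 2 groups alone. With isoxaflutole at 1 mM the count of regulatory members higher was 2 with a sum without the 20 most abundant features (added after the data were seen), 3 with unnamed transcripts added, and 0 to 1 without 1 library.

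Against mesotrione at 1 mM, quizalofop-p-ethyl had 10 members higher and 2 lower. Higher were 0 with equal summed FPKM, 0 with all 50 libraries and 4 with the most abundant transcript; lower were 0 without a filter, 0 with median-ratio scaling, 0 with all 50 libraries and 1 with the 2 groups alone, and 8 to 10 higher and 0 to 3 lower without 1 library. Against isoxaflutole, with 4 higher and 3 lower, higher were 10 with median-ratio scaling, 0 with equal summed FPKM, 0 with all 50 libraries, 2 with the most abundant transcript, 8 with unnamed transcripts added and 2 with the 2 groups alone; lower were 0 with median-ratio scaling, 0 with all 50 libraries and 1 with the 2 groups alone. Without 1 library they ran from 4 to 7 higher and 0 to 5 lower.

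Among named genes, 5 differences that passed the threshold as reported or under the alternative turned direction. With equal summed FPKM PSMB6 differed from control by -0.0053 with quizalofop-p-ethyl. With the most abundant transcript PSMD13 differed by -1.39 from control and -1.49 from mesotrione, and PSMA7 by -0.066 from mesotrione. With unnamed transcripts added PSMD2 differed by 0.20 from control. Over all 34 members, equal summed FPKM left 15 above 0 in place of 26 with quizalofop-p-ethyl at 1 mM, 12 in place of 29 with mesotrione and 31 in place of 32 with isoxaflutole. The cause of these changes was not tested.

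The ratio of core to regulatory sums was 1.341 in control, 1.319 with mesotrione, 1.317 with isoxaflutole and 1.305 with quizalofop-p-ethyl at 1 mM from the most abundant transcripts. Without the chaperones PSMD5, PSMD9 and PSMD10 it was 1.244, 1.209, 1.221 and 1.159 in the same order. With unnamed transcripts added, without those of PSMA1 and PSMA6, the ratio was 1.066 with quizalofop-p-ethyl, and the control libraries ran from 1.130 to 1.241. Without 1 library the main ratio ran from 1.147 to 1.181, 1.122 to 1.141, 1.145 to 1.157 and 1.093 to 1.107, in the order above.

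Libraries were also set in 5 runs of consecutive sample numbers. Over 44 pairs with control the correlation of deviations ran from -0.078 to 0.143, with 3 over 0.1. With these runs as a replicate block 14 members were higher and 1 lower with quizalofop-p-ethyl against control. In the same fit 2 regulatory members were higher with isoxaflutole against control and 7 members were higher with quizalofop-p-ethyl against isoxaflutole. Over all genes the block raised the calls against control at 1 mM. With mesotrione 79 were higher and 264 lower in place of 43 and 170, and with isoxaflutole 388 and 422 in place of 280 and 305. With quizalofop-p-ethyl they were 3235 and 4928 in place of 3142 and 4784. Estimated depth, 7410000 to 35500000 fragments, limits low members such as PSMD12 most.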

Other observations

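Replicate 5 of quizalofop-p-ethyl at 10 uM, which entered no comparison, held 63.3 FPKM of core and 58.4 FPKM of regulatory members, against 630 to 663 and 545 to 564 FPKM in the other 4 libraries of its group.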
